A study of Mus musculus with 12 samples.

Results

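The genes described here are 9 members of the CC chemokine system that attract monocytes or receive their signals: the ligands Ccl2, Ccl7, Ccl12, Ccl3, Ccl4, Ccl6 and Ccl9 and the receptors Ccr1 and Ccr2. They were taken by gene symbol from the 52336 genes of the deposited table, and 9 of 9 had the mean normalized count of at least 10 over all libraries that was asked of a gene before testing (14996 genes tested). Ccr2 had a mean under 10 in each sham group and passed through its MI libraries, so its place among the tested genes is tied to its level after MI. Ccl4 and Ccl12 had a mean under 10 in saline sham. In NAC sham their means passed 10 only through NAC sham 2 (51.7 and 83.2), since the rest of that group was under 10 for both. The place of Ccl4 and Ccl12 is thus tied to that library and to the MI libraries. RNA sequencing had been done on cardiomyocytes isolated from the ventricles of wild type mouse pups in 12 libraries, 3 in each of 4 groups. All pups had injections on postnatal days 0 to 1, surgery on day 2 and collection on day 3. The saline sham and saline MI groups received saline, and the NAC sham and NAC MI groups received N-acetylcysteine (NAC), an antioxidant that supplies cysteine, at a dose the labels call high. A HEPES saline buffer (25 mM HEPES, 140 mM NaCl) is listed for all 4 groups. MI stands for myocardial infarction by LAD occlusion, a block of the left anterior descending artery of the heart, and sham for the control procedure. Hearts were pooled, the labels name no strain, and nothing states that the 3 libraries of a group came from separate litters, so the p-values reflect only how far these libraries spread, which may be technical. Sample labels say left ventricle where the design text says whole ventricles.

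CC chemokines are small secreted proteins with a pair of adjacent cysteines near the amino terminus, and their receptors are G protein-coupled receptors of white blood cells. In an injured heart they are known for drawing monocytes and other white cells out of the blood. Ccl2, Ccl7 and Ccl12 are monocyte chemoattractant proteins that bind Ccr2, the receptor of inflammatory monocytes. Ccl3 and Ccl4 are macrophage inflammatory proteins, and Ccl3 binds Ccr1. Ccl6 and Ccl9 are rodent chemokines that bind Ccr1, a receptor of monocytes, macrophages and neutrophils.

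On GRCm38, the GENCODE M21 annotation places the 7 ligand genes on chromosome 11 and both receptor genes on chromosome 9, all as protein-coding genes. The chemoattractant protein group lies on the plus strand: Ccl2 (ENSMUSG00000035385) at 82035571 to 82037453, Ccl7 (ENSMUSG00000035373) at 82045712 to 82047525 and Ccl12 (ENSMUSG00000035352) at 82101845 to 82103400. Further along the chromosome, Ccl9 (ENSMUSG00000019122, 83572919 to 83578636), Ccl6 (ENSMUSG00000018927, 83587882 to 83593087) and Ccl3 (ENSMUSG00000000982, 83647844 to 83649355) lie on the minus strand and Ccl4 (ENSMUSG00000018930, 83662584 to 83664683) on the plus strand. Ccr1 (ENSMUSG00000025804) lies at 123962124 to 123968692 on the minus strand of chromosome 9, and Ccr2 (ENSMUSG00000049103) at 124101950 to 124113557 on the plus strand. No exon of a member overlaps an exon of another gene. Stretches of 50 bases shared with other genes made up 1.97% of those in Ccl9 and 1.91% of those in Ccr2, and 0% in the other 7 members. Reads from these stretches could have been counted for either gene.

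RefSeq start sites (GRCm38.p6) were found for 6 of the 9 genes (Ccl3, Ccl6, Ccl9, Ccl12, Ccr1 and Ccr2). The 250 bases before the start are printed for Ccl6, Ccl9, Ccl3 and Ccr1. The Ccl12 window is not printed, and it held TATAAA at bases -31 to -26 from the start. The Ccr2 window is not printed, since 233 of its 250 bases lie in annotated exons of Ccr2 itself. The printed windows lie at chr11:83593088-83593337 (Ccl6), chr11:83578637-83578886 (Ccl9), chr11:83649379-83649628 (Ccl3) and chr9:123968693-123968942 (Ccr1), all on the minus strand, and are given 5′ to 3′ in the direction of the gene. Capitals mark matches on either strand to 4 motifs: an NF-kB site, the TATA box TATAAA, the AP-1-like TGANTCA and the PU.1-like GAGGAA.
Ccl6: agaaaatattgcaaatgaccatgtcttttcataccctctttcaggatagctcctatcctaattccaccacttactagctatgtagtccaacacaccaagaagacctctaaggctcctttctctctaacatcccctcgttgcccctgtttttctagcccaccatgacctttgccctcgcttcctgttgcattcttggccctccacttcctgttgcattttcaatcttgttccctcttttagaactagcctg
Ccl9: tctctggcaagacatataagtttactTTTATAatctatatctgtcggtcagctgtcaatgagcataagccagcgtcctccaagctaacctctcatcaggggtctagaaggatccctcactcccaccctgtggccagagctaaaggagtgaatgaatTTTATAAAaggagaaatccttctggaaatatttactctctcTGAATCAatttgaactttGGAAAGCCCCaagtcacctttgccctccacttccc
Ccl3: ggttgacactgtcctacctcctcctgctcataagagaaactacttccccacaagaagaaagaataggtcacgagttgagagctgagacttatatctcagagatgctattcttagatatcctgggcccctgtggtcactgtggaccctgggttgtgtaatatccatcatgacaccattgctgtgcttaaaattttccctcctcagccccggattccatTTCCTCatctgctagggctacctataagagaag
Ccr1: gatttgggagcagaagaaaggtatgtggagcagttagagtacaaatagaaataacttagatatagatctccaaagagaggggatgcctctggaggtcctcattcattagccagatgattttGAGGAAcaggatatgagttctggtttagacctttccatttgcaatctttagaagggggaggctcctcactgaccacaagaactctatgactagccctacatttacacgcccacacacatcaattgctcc
The Ccl9 window held the NF-kB letters once, TGANTCA once and TATAAA at 3 places, a pair of which overlap on opposite strands. The TATAAA matches began at bases -224 and -94 on the opposite strand and at -92 on the strand of the gene. The Ccl3 and Ccr1 windows held GAGGAA alone, the former on the opposite strand (TTCCTC), and the Ccl6 window held none of the 4 motifs. Over the 6 windows, NF-kB letters were in 1, TGANTCA in 1 (Ccl9 in both cases), TATAAA in 2 (Ccl9 and Ccl12) and GAGGAA in 3 (Ccl3, Ccl12 and Ccr1). These 6 include the mostly exonic window of Ccr2, which held none of the motifs. Among 32851 RefSeq windows of this length the shares were 3.9%, 6.75%, 12.4% and 23.3%. These matches describe letters in a short window and were not tied to any measurement of binding.

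Recovered depth was 14353842 to 25118341 reads per library. The isolates held the transcripts of the labelled cell type: none of 10 cardiomyocyte markers was at 0 in any group, and their mean log2(normalized count + 1) was 13.7 to 15.3. They also held those of other cells, with a mean of 10.99 to 12.8 for 8 endothelial markers and 12.4 to 13.7 for 8 fibroblast markers. White-cell markers set 2 libraries apart from their groups. The summed normalized count of 18 monocyte and macrophage markers was 22735 in NAC sham 2, against 1946 and 1522 in the other NAC sham libraries and 1003 to 1642 in saline sham. In NAC MI 2 it was 1257, against 12850 and 10963 in the other NAC MI libraries and 9930 to 14436 in saline MI. For 12 neutrophil markers, NAC MI 2 was again low (1133 against 6552 and 5794), whereas NAC sham 2, with 980, lay between the other NAC sham libraries (1160 and 550). None of these markers was at 0 throughout a group. The same libraries also differed in other cell types. NAC sham 2 had the lowest mean log2 level of cardiomyocyte markers of the 12 libraries (13.7, against 15.3 in both others of its group) and the highest summed endothelial markers (79075, against 45385 and 36538). NAC MI 2 had the lowest summed endothelial markers (20304, against 35853 and 47324) and the highest summed count of 6 epicardial markers (16043, against 4121 and 4118). Saline sham 3 stood apart by the mitochondrial share of its reads, 27.7%, where the rest of its group had 7.65% and 13.6%. Those were the lowest shares of the 12 libraries, and the other 9 had 15.4% to 30.2%. Title prefixes of unstated meaning (R207, R219, R230, R235 or none) were never shared by sham and MI libraries, so prefix and surgery cannot be told apart in any value below.

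In saline-treated pups, MI was compared with sham surgery a day after the procedure. All 9 members were higher in every saline MI library than in every saline sham library, where 10.4% of the tested genes were higher without overlap. With adjustment over the 14996 genes, the receptors Ccr1 and Ccr2 passed the threshold (limma, adjusted p under 0.05), which is 2 of 9 members against 0.854% of tested genes called higher. Ccr2 was tested only through its MI libraries, and Ccl4 and Ccl12 were low in saline sham. Their part in the counts of this paragraph is thus not independent of the filter. Before adjustment 8 of 9 had a p under 0.05, all but Ccl12, against 11.4% of tested genes. The median log2 fold change of the 9 was 3.94, and that of all tested genes was -0.01. In bulk RNA, more cells of a type and more RNA per cell cannot be told apart. The summed monocyte and macrophage markers and the summed neutrophil markers were higher in each saline MI library than in each saline sham library (5449 to 6407 against 170 to 900 for neutrophils). So were summed fibroblast (163520 to 249830 against 100510 to 146990) and epicardial markers (3776 to 4293 against 2576.5 to 3121). Summed endothelial (37543 to 47185 against 63103 to 69640) and mural markers (7684 to 10262 against 14502 to 14828) were lower without overlap. Those of cardiomyocytes, red cells, T, B and NK cells, and mast cells, basophils and eosinophils overlapped. The part of these markers in the members' differences was not tested. Mitochondrial reads were 24.7% to 30.2% in saline MI, against 7.65% to 27.7% in saline sham, and their part was not tested either.

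**Figure D1:**
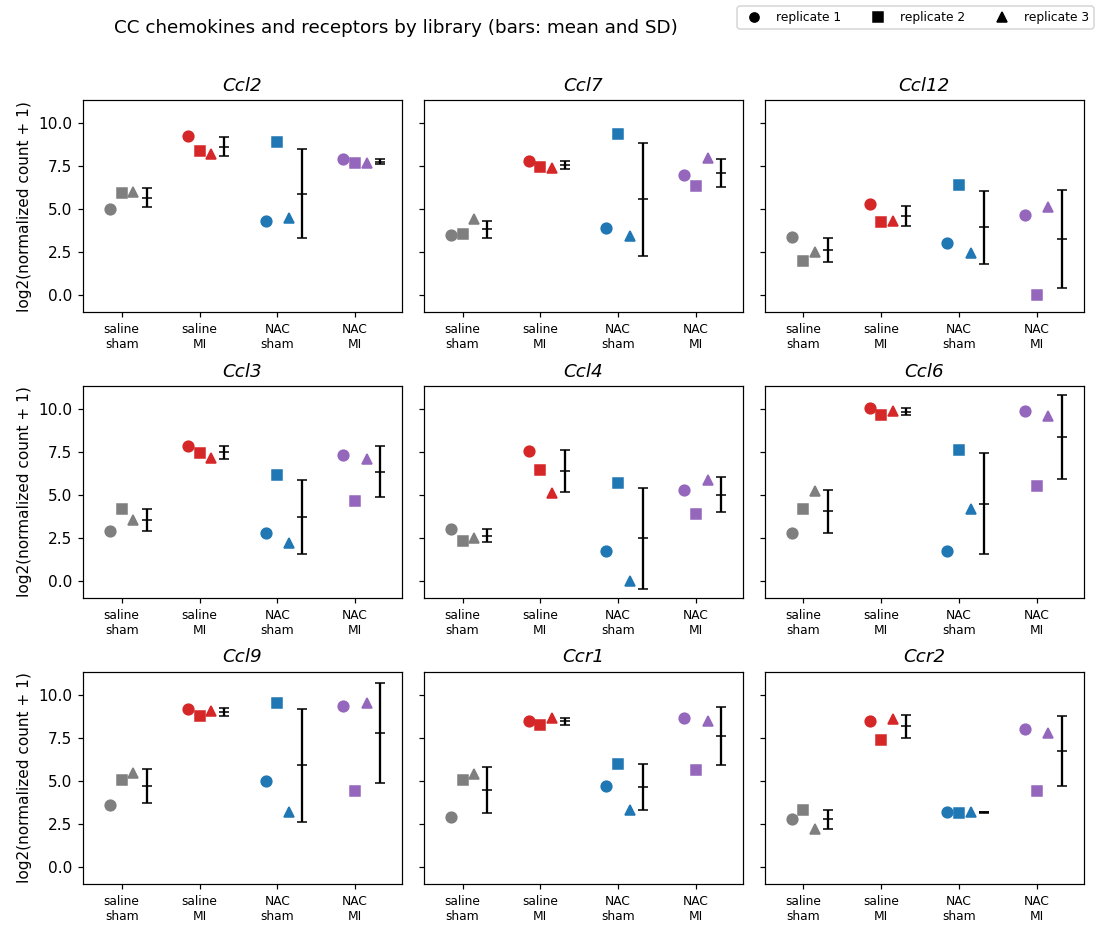
Each panel plots a member's log2(normalized count + 1) on the y axis for the 4 groups on the x axis, with 1 point per library (the marker shape gives the replicate) and the mean and SD of the 3 libraries beside them. Saline MI lies above saline sham in all 9 panels, while NAC sham 2 lies above the rest of its group in 8 panels and level with it for Ccr2, and NAC MI 2 lies below its group except for Ccl2.

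Among the ligands of Ccr2, Ccl2 had normalized counts of 31.9, 61.5 and 63.1 in saline sham and 608, 339 and 301 in saline MI. The lowest MI library was thus well above the highest sham library. The means were 52.2 ± 17.6 and 416 ± 167 (SD, n = 3 each), and the log2 fold change was 2.96 (SE 0.89, adjusted p = 0.185 in limma). Ccl7 had 10.1, 10.9 and 20.2 in saline sham and 224, 175 and 171 in saline MI. The saline MI values lay close together, yet the log2 fold change of 3.74 (SE 1.13) did not pass (adjusted p = 0.187 in limma), in a model whose spread is estimated over all 4 groups. Ccl12 had the lowest mean of the ligands in saline MI, with 9.42, 2.98 and 4.76 in saline sham and 38.1, 17.8 and 18.5 in saline MI. Its log2 fold change of 1.97 had a 95% interval from -0.78 to 4.72, the only one of the 9 that included 0 in this comparison.

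The macrophage inflammatory proteins Ccl3 and Ccl4 and the Ccr1 ligands Ccl6 and Ccl9 were low in sham hearts and higher after MI. Ccl3 had 6.52, 16.9 and 10.7 in saline sham and 229, 172 and 140.3 in saline MI, a log2 fold change of 3.94 (SE 0.92, adjusted p = 0.0713 in limma). Ccl4, its neighbour on the chromosome, had 7.25, 3.97 and 4.76 in saline sham and 191, 86.9 and 34.1 in saline MI. The MI libraries of Ccl4 thus ranged more widely than those of Ccl3, and its log2 fold change was 3.76 (SE 1.15, adjusted p = 0.193 in limma). Ccl6 reached the highest normalized counts of the 9 after MI, 1062, 792 and 943, from 5.80, 16.9 and 36.9 in saline sham. Its log2 fold change of 5.80 was also the highest of the 9 (SE 1.31, adjusted p = 0.0606 in limma). Ccl9, encoded next to Ccl6, had 10.9, 31.8 and 42.8 in saline sham and 577, 429 and 530.1 in saline MI and did not pass (limma, adjusted p = 0.243, log2 fold change 4.31, SE 1.46).

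Both receptors rose after MI. Ccr1 had 6.52, 32.7 and 40.5 in saline sham and 352, 305 and 407 in saline MI. Means were 26.6 ± 17.8 and 355 ± 51.4 (SD, n = 3 each), and the log2 fold change was 4.01 (SE 0.85, adjusted p = 0.0472 in limma). That call lay near the threshold: it was lost on leaving out any 1 of the 6 libraries compared (adjusted p 0.0566 to 0.205), without the filter on low values (0.0511) and with edgeR on recovered reads (0.0610). Ccr2 had 5.80, 8.93 and 3.57 in saline sham and 354, 168 and 393 in saline MI. The 3 saline sham libraries held 20 Ccr2 reads in all and the 3 saline MI libraries 945. Means were 6.10 ± 2.69 and 305 ± 120, and the log2 fold change was 5.41 (SE 0.77, adjusted p = 0.00692 in limma). Ccr2 lost its call on leaving out saline MI 1 (adjusted p = 0.0617 in limma) and kept it under the other alternatives run.

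The number of members called in this comparison moved with the fit. It was 8 with only the 6 libraries compared in the model, 5 with DESeq2 and 4 with a pseudocount of 5, but 1 with edgeR or without the filter on low values. Leaving out 1 library at a time gave 0 or 1, with 0 on leaving out saline MI 1. Without saline sham 3, NAC sham 2 and NAC MI 2 it was 8, with Ccl12 not called. Those 3 libraries had been singled out in part for their white-cell markers, so this count is not independent of the members' levels. Calls over all tested genes moved as well. They were 129 in the main fit, 507 with only the libraries compared, 464 with DESeq2 and 15 to 105 on leaving out 1 library. Without the 3 libraries, 1807 of 14996 genes were called.

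**Figure D2:**
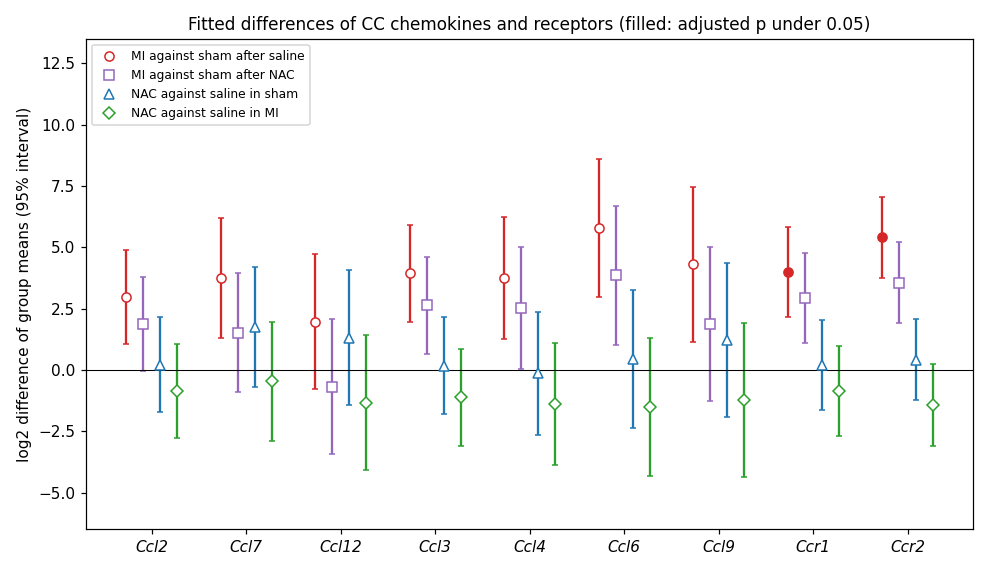
The y axis gives the fitted log2 difference of group means with its 95% interval for each member on the x axis, in 4 comparisons set apart by colour and marker, and filled markers have an adjusted p under 0.05 in limma. The filled points are those of Ccr1 (4.01) and Ccr2 (5.41) for MI against sham after saline, and the points for NAC against saline in MI all lie below 0 with intervals that include 0.

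After NAC, the same comparison of MI with sham gave 0 of 9 members called, against 0.127% of tested genes called (19 genes). Before adjustment, 5 members had a p under 0.05 in limma (Ccl3, Ccl4, Ccl6, Ccr1 and Ccr2), against 10% of tested genes. Tests on recovered reads called Ccr2 with edgeR, and Ccr1 and Ccr2 with DESeq2, which called 241 of all tested genes. The 9 log2 fold changes had a median of 2.53 and ran from -0.68 for Ccl12 to 3.86 for Ccl6. Only Ccr2 had every NAC MI library above every NAC sham library, 1 of 9 where 9.08% of tested genes were higher without overlap. As said above, Ccr2 was tested only through its MI libraries.

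Ccr2 had 8.19, 7.88 and 8.02 in NAC sham and 259, 20.2 and 220.5 in NAC MI. The sham values were nearly equal and the lowest MI value, in NAC MI 2, was far below the others. The log2 fold change was 3.57 (SE 0.77, adjusted p = 0.114 in limma). Ccr1 had 24.6, 62.2 and 8.91 in NAC sham and 402, 49.3 and 361 in NAC MI. NAC MI 2 fell below NAC sham 2, so the groups overlapped, and the log2 fold change was 2.95 (SE 0.85, adjusted p = 0.246 in limma). Ccl6 overlapped likewise, with 2.34, 192 and 16.9 in NAC sham and 958, 45.5 and 786 in NAC MI. Its log2 fold change of 3.86 had an SE of 1.31 (adjusted p = 0.351 in limma).

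For the ligands of Ccr2, NAC sham 2 reached or passed the level of the MI libraries. Ccl2 had 18.7, 472 and 21.4 in NAC sham and 243, 208 and 204 in NAC MI. NAC sham 2 was above all 3 NAC MI libraries, and those 3 lay within a narrow range. The log2 fold change of Ccl2 was 1.88 (SE 0.89, adjusted p = 0.509 in limma). Ccl7 had 14.0, 663 and 9.80 in NAC sham and 128, 79.6 and 246.5 in NAC MI (log2 fold change 1.52, adjusted p = 0.640 in limma). Its sign turned with the count tests, to -0.56 in edgeR and -0.60 in DESeq2. Ccl12 had 7.02, 83.2 and 4.45 in NAC sham and 24.4, 0 and 33.9 in NAC MI, with 0 reads in NAC MI 2. Its log2 fold change was -0.68 (adjusted p = 0.857 in limma) and 2.17 without the 3 libraries that stood apart.

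Ccl3 had 5.85, 71.8 and 3.56 in NAC sham and 157, 24.0 and 138 in NAC MI. The second library of each group again held the values that overlapped, and the log2 fold change was 2.64 (adjusted p = 0.365 in limma). Ccl4 had 2.34, 51.7 and 0 in NAC sham and 37.5, 13.9 and 57.7 in NAC MI (log2 fold change 2.53, adjusted p = 0.497 in limma). Ccl9 had 30.4, 747 and 8.02 in NAC sham and 664, 20.2 and 733 in NAC MI. NAC sham 2 was above all 3 NAC MI libraries, and NAC MI 2 was within the range of the lower pair of NAC sham libraries. The log2 fold change of Ccl9 was 1.87 (SE 1.46, adjusted p = 0.658 in limma).

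The count after NAC changed with those libraries. Without NAC sham 2 the model called 3 of the 9 members and 67 of all tested genes. Without NAC MI 2 it called 1 member and 33 genes. Without NAC sham 2, NAC MI 2 and saline sham 3 it called 8 members, all but Ccl12, and 575 genes, with the same reservation as above.

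Members did not all differ to the same degree within the libraries that stood apart. In NAC sham 2, relative to the mean of the other NAC sham libraries, Ccl7 was 55.6 times as high, Ccl4 44.2 times, Ccl9 38.9 times, Ccl2 23.5 times, Ccl6 19.9 times, Ccl3 15.3 times and Ccl12 14.5 times. Some of these ratios rest on few reads outside that library, so the order of the ligands is uncertain. Of 61 Ccl4 reads in NAC sham, 59 were in NAC sham 2. For Ccl3 it was 82 of 91, and for Ccl12 95 of 106. The receptors differed from the ligands there: Ccr1 was 3.72 times as high and Ccr2 0.973 times. NAC sham 2 was the highest of all 12 libraries for Ccl7, Ccl9 and Ccl12, and the tenth for Ccr2. Ccl5, another ligand of Ccr1, had 2015 in NAC sham 2 against 3.51 and 0.89 in its group. Among markers chosen after their values were seen, the macrophage marker Adgre1 had 3624 in that library, against 111 and 42.8 in its group and 328 to 585 in saline MI, while Ly6c2, a marker of inflammatory monocytes, had 9.63 against 16.4 and 4.45. Not all 18 monocyte and macrophage markers were high there, and Timd4 was at 0.

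In NAC MI 2 the order was different. Relative to the mean of the other NAC MI libraries, Ccl2 was 0.933 times as high and Ccl7 0.425 times, followed by Ccl4 (0.292), Ccl3 (0.163), Ccr1 (0.129), Ccr2 (0.0843), Ccl6 (0.0521) and Ccl9 (0.0289). Ccl12 was lowest, with 0 reads there against a mean of 29.2 in the others, so the 3 ligands of Ccr2 did not keep together. Ccl2 was at the level of its group in a library where the summed monocyte and macrophage markers were 1257, within the range of saline sham. Ccl2 there, with 208, was above all 3 saline sham libraries (31.9 to 63.1). Ccl9, by contrast, with 20.2, was within the range of saline sham (10.9 to 42.8). These ratios each come from 1 library and have no replicate check.

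**Figure D3:**
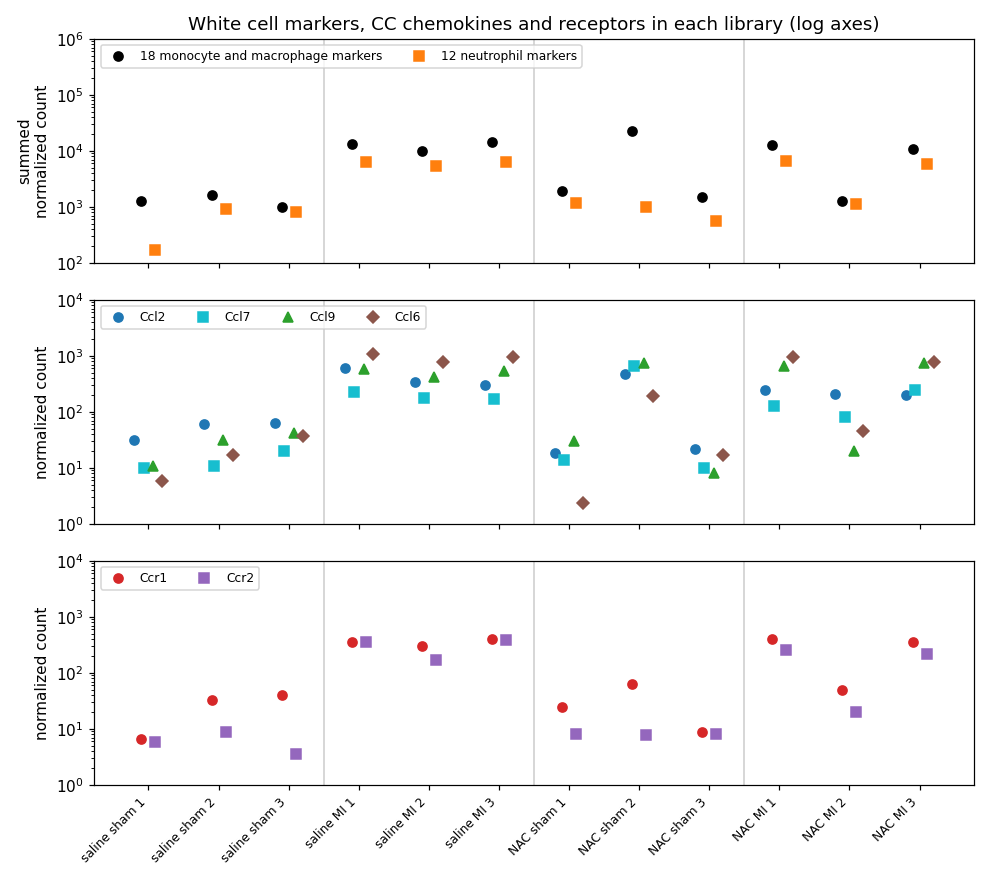
The panels share an x axis of the 12 libraries and have log y axes in normalized counts: the summed levels of 18 monocyte and macrophage and 12 neutrophil markers (top), of Ccl2, Ccl7, Ccl9 and Ccl6 (middle), and of Ccr1 and Ccr2 (bottom). NAC sham 2 is high for the macrophage markers (22735) and the ligands but not for neutrophil markers or Ccr2 (7.88), and NAC MI 2 is low for all but Ccl2 (208) and, to a lesser degree, Ccl7 (79.6).

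With both treatments averaged, MI against sham called 4 of 9 members higher (Ccl3, Ccl6, Ccr1 and Ccr2), against 2.13% of tested genes called higher. The call of Ccr2 is again tied to the filter, which it passed through its MI libraries. Before adjustment 8 of 9 had a p under 0.05, against 20.2% of tested genes. Ccr2 had a log2 fold change of 4.49 (SE 0.54, adjusted p = 0.000882 in limma) and Ccr1 one of 3.48 (SE 0.60, adjusted p = 0.00879 in limma). Ccl6 rose by 4.83 (SE 0.92, adjusted p = 0.0153 in limma) and Ccl3 by 3.29 (SE 0.65, adjusted p = 0.0178 in limma) on the log2 scale. Ccl2 and Ccl4 did not pass, with log2 fold changes of 2.42 and 3.15 and an adjusted p of 0.0595 each in limma. Ccl7 (2.63), Ccl9 (3.09) and Ccl12 (0.64) did not pass either. The calls of Ccl3 and Ccl6 were lost on leaving out saline sham 1 (adjusted p = 0.0609 and 0.0534) or saline MI 1 (0.0634 and 0.0514), and that of Ccl3 also without NAC sham 1 (0.0503). The count was 8 on leaving out NAC sham 2, 6 on leaving out NAC MI 2, 2 on leaving out saline sham 1 or saline MI 1, and 9 without the 3 libraries that stood apart. Over all tested genes, 411 were called in the main fit and 2183 without the 3 libraries. Leaving out saline sham 1 gave 200 genes, and leaving out saline MI 1 gave 133.

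The comparison of NAC with saline in sham hearts gave 0 of 9 members called in limma, where 0% of tested genes were called. No member had an unadjusted p under 0.05, against 5.89% of tested genes, and edgeR and DESeq2 called none. Before adjustment, 2 members were under 0.05 in edgeR (Ccl7 and Ccl9), 3 in DESeq2 (Ccl7, Ccl9 and Ccl12), and 3 in limma without the 3 libraries that stood apart (Ccl2, Ccl3 and Ccl4). The share of all tested genes under 0.05 was not computed for these alternative fits, so these counts cannot be set against it. The fitted log2 differences ran from -0.14 for Ccl4 to 1.75 for Ccl7. In that comparison 16 of 17 monocyte and macrophage markers (median 1.68) and 11 of 11 neutrophil markers (0.72) lay above 0. By contrast, 0 of 5 red cell markers (-1.57), 0 of 4 T, B and NK cell markers (-0.81) and 0 of 8 endothelial markers (-0.37) did. Also above 0 were 6 of 7 mural, 6 of 8 fibroblast, 3 of 6 epicardial and 5 of 10 cardiomyocyte markers. Of mast cell, basophil and eosinophil markers, 1 of 6 was above 0. The part of these markers was not tested. Intervals were wide: for Ccl2 the difference of 0.22 had a 95% interval from -1.70 to 2.14, and for Ccl7 from -0.69 to 4.19. The narrowest was that of Ccr2, 0.42 with an interval from -1.24 to 2.08. Means for Ccr2 were 6.10 ± 2.69 in saline sham and 8.03 ± 0.153 in NAC sham (SD, n = 3 each), which differ by less than the spread of the saline libraries. Without the 3 libraries that stood apart, 5 of the differences above 0 turned below 0, among them Ccl2 (-1.11) and Ccl3 (-1.05).

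After MI, the fitted NAC against saline difference was below 0 for all 9 members, with a median of -1.22 on the log2 scale (-0.02 over all tested genes), but 0 of 9 were called, where 0% of tested genes were called in limma. No member had an unadjusted p under 0.05, against 9.22% of tested genes, and edgeR and DESeq2 called none. Before adjustment, Ccl2 alone was under 0.05 in limma with only the libraries compared and without the 3 libraries that stood apart. The same held with title prefix as a term. For these alternative fits the share of all tested genes under 0.05 was not computed. In some cell lists, every tested marker lay below 0 in the same comparison. These were monocytes and macrophages (17 of 17, median -1.30), T, B and NK cells (4 of 4, -2.43) and red cells (5 of 5, -1.46). Other lists were mixed. Above 0 lay 1 of 6 mast cell, basophil and eosinophil, 1 of 8 endothelial and 2 of 7 mural markers. So did 3 of 11 neutrophil (median -0.65), 4 of 8 fibroblast, 6 of 10 cardiomyocyte and 5 of 6 epicardial markers (0.83). The part of these markers in the members' differences was not tested. The members' differences ran from -0.47 for Ccl7 to -1.50 for Ccl6. Ccr2 had a mean of 305 ± 120 in saline MI and 167 ± 128 in NAC MI (SD, n = 3 each), a log2 difference of -1.43 with a 95% interval from -3.09 to 0.24 (adjusted p = 0.568 in limma). Ccl2 alone had all NAC MI libraries (204 to 243) below all saline MI libraries (301 to 608), 1 of 9 where 11.5% of tested genes were lower without overlap. Its log2 difference was -0.86, with an interval from -2.78 to 1.06 (adjusted p = 0.743 in limma). An exact permutation test of 3 libraries against 3 could give no p below 0.1.

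That direction turned for 3 members on leaving out NAC MI 2, with differences of 0.46 for Ccl9, 0.29 for Ccl12 and 0.11 for Ccr1. Without that library the difference was -0.26 for Ccr2, -0.09 for Ccl6, -0.27 for Ccl3, -0.09 for Ccl7 and -0.82 for Ccl4, each nearer to 0 by over 1.5 times, and -0.83 for Ccl2. Both treatments were present in 2 of the title prefixes after MI. Within R230 (NAC MI 3 against saline MI 1 and 2), 5 of 9 differences were below 0, with a median of -0.15 and a range from -1.15 to 0.56. Within R235, which holds NAC MI 2, 9 of 9 were below 0, with a median of -1.52 and a range from -2.41 to -0.42. In sham, the only prefix with both treatments was R207 (NAC sham 2 against saline sham 1 and 2), where 0 of 9 were below 0 and the median was 3.38. These within-prefix values rest on 1 library on one side and have no test.

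Whether NAC altered the effect of MI was tested by the interaction, which called 0 of 9 members, where 0% of tested genes were called in limma. No member had an unadjusted p under 0.05 in limma, against 2.03% of tested genes. On recovered reads, edgeR called 0 with 1 member under 0.05 before adjustment (Ccl7), and DESeq2 called 0 with 2 (Ccl7 and Ccl4). The share of all tested genes under 0.05 in those count tests was not computed. All 9 fitted interactions were below 0, from -1.07 for Ccr1 to -2.66 for Ccl12, and every 95% interval included 0. That of Ccr2, -1.84, ran from -4.19 to 0.51. In the same test, 16 of 17 monocyte and macrophage markers (median -2.81) and 11 of 11 neutrophil markers (median -1.38) were below 0, and their part was not tested. Above 0 were 5 of 6 epicardial (median 0.89), 7 of 10 cardiomyocyte and 4 of 5 red cell markers. So were 3 of 8 endothelial, 3 of 8 fibroblast and 3 of 6 mast cell, basophil and eosinophil markers. Mural markers (0 of 7) and T, B and NK cell markers (0 of 4, median -1.69) had none above 0. The part of these lists was not tested either. Without the 3 libraries that stood apart, 7 of the 9 were above 0, from 0.11 for Ccr1 to 0.99 for Ccl4. The direction of the interaction for those 7 members therefore turned with the libraries included.

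Levels were compared between genes as normalized counts per kilobase of annotated exon. In saline sham, Ccl2 led with 45.8 ± 15.4 per kb (SD, n = 3), above the range of the next gene, Ccl7 (17.2 ± 7.01). From Ccl7 down to Ccl4 (8.07 ± 2.59), each gene overlapped its neighbour in the order Ccl7, Ccl3, Ccl6, Ccl12, Ccr1, Ccl9 and Ccl4. Ccr2 was last, with 0.902 ± 0.398 per kb, below the range of Ccl4. In saline MI the order began with Ccl6 at 519 ± 75.5 per kb, followed by Ccl2 at 366 ± 147, whose ranges overlapped. Ccl7, Ccl3, Ccl9, Ccl4 and Ccr1 followed with means from 237 down to 125 per kb, each overlapping the next. Ccl12 (46.2 ± 21.5) and Ccr2 (45.1 ± 17.8) lay below the range of Ccr1 and did not differ beyond their spread.

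The levels after NAC had wider ranges. In NAC sham the highest mean was that of Ccl7, 286 ± 469 per kb, which came from NAC sham 2, and neighbouring genes overlapped down to Ccr1 (11.3 ± 9.67). Ccr2, at 1.19 ± 0.0226 per kb, lay below the range of Ccr1. In NAC MI, Ccl6 again had the highest mean (332 ± 270 per kb) and Ccr2 the lowest (24.6 ± 19.0), and each gene overlapped the next. Ccl2 varied less around its mean, with 192 ± 18.9 per kb.

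**Figure D4:**
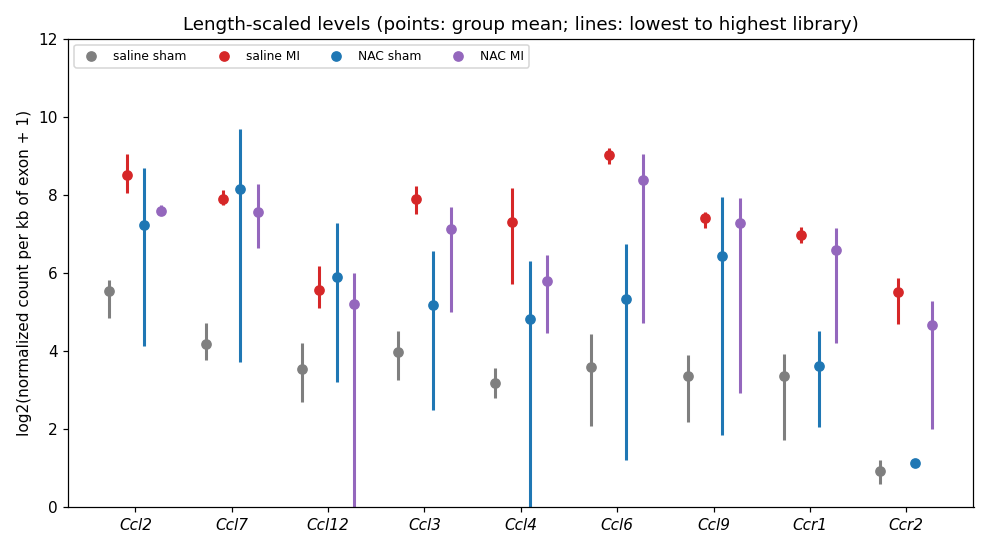
The y axis gives log2(normalized count per kb of exon + 1) for each member on the x axis, with group means as points and lines from the lowest to the highest library of the 3 in each group. Ccr2 has the lowest mean in each of the 4 groups, and Ccl2 the highest in saline sham.

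Of the other CC chemokines, 5 of 13 reached the level for testing, and 0 were called in MI against sham after saline (3 of 5 above 0) or after NAC. With treatments averaged 1 was called, Ccl24 (eotaxin-2, an attractant of eosinophils), with a log2 fold change of 4.43 (SE 0.96, adjusted p = 0.0291 in limma). Like Ccr2, it was tested only because of its level after MI, with means of 0.483 in saline sham and 1.56 in NAC sham. Its normalized counts were 1.45, 0 and 0 in saline sham and 59.4, 104 and 62.4 in saline MI, or 2 reads against 257. The ratio of depth-scaled reads was 127, with a 95% interval from 34.8 to 1055 that covers counting error only. In NAC MI, Ccl24 had 53.5, 0 and 62.2, so NAC MI 2 was again the library without it. Ccl5 had 5.80, 0 and 8.33 in saline sham and 139, 20.1 and 26.3 in saline MI (log2 fold change 3.44, adjusted p = 0.534 in limma). Ccl27a and Ccl25 had log2 fold changes of 0.83 and -0.27 in that comparison, with overlapping groups.

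Of the other CC receptors, decoy receptors included, 7 of 12 were tested, and 0 were called in MI against sham after saline (5 of 7 above 0), after NAC or averaged. Ackr4 and Ackr2, which take up chemokines without signalling, had log2 fold changes of 0.18 and -0.36 after saline. Ccrl2, an atypical receptor, had 33.3, 42.7 and 126 in saline sham and 460, 306 and 138 in saline MI (limma, log2 fold change 2.23, SE 0.65, adjusted p = 0.158).

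In the list of genes that signal downstream of chemokine receptors, 20 of 20 were tested and 2 were called higher in MI against sham after saline, with 16 of 20 above 0 and a median of 1.19. The share of all tested genes called higher was 0.854% there and 2.13% with treatments averaged, which applies to the next list as well. The called genes were Plcb2, a phospholipase of white cells (35.8 ± 4.79 to 138 ± 27.5, log2 fold change 1.91, adjusted p = 0.0331 in limma), and Fgr, a kinase of the Src family (2.25 ± 2.39 to 280 ± 39.5, log2 fold change 6.76, adjusted p = 0.00747 in limma). After NAC 0 were called, and averaged over treatments 3 were called, the third being Rgs1, which dampens G protein signalling (log2 fold change 3.83, adjusted p = 0.0109 in limma). In the list of inducers and regulators of chemokine genes, 17 of 20 were tested and 2 were called higher after saline, with 11 of 17 above 0 and a median of 0.15. Il1b, an inflammatory cytokine that induces chemokines, went from 3.62, 7.94 and 15.5 in saline sham to 1716, 1276 and 587 in saline MI (limma, log2 fold change 6.95, SE 1.13, adjusted p = 0.0125). Cebpb, a transcription factor of inflammatory genes, went from 133 ± 15.5 to 710 ± 232 (log2 fold change 2.36, adjusted p = 0.0399 in limma). After NAC 0 were called, and averaged over treatments 4 were (Il1b, Cebpb, Il6 and Tlr2). Of these, Il6 had means under 10 in both sham groups (7.71 and 5.65) and was tested through its MI libraries. Fgr and Il1b had means under 10 in saline sham alone (2.25 and 9.01), so their place among the tested genes rests on other groups. In NAC sham they had 21.1 and 60.5, the latter mostly from NAC sham 2 (170). Il6 did not follow the white-cell markers in NAC MI 2, where it had 34.1 against 27.2 and 35.1 in its group.

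Likeness of pattern was measured as the mean absolute difference between the ranks that 2 genes give to the 12 libraries, over 11478 genes with a mean normalized count of at least 50. For Ccl2 the nearest genes were Acod1 (0.75 ranks), Efhd2, Gltp and Gsdmd (0.833 each) and Plaur (1), where the median gene was at 4.17. Acod1, the enzyme that makes itaconate, had means of 1.30 in saline sham, 46.5 in saline MI, 127 in NAC sham and 26.2 in NAC MI. Among the members, those nearest to Ccl2 were Ccl3 (1.17), Ccl4 and Ccl6 (1.33 each) and Ccl7 (1.5), and the farthest was Ccr2 (2.67). For Ccr2 the nearest genes were Atp8b4, Clip3, F13a1, Plac8 and Sorl1, at 0.833 ranks each, where the median gene was at 4. F13a1, a coagulation factor subunit found in monocytes and macrophages, had means of 81.2 in saline sham, 1034 in saline MI, 87.9 in NAC sham and 619 in NAC MI. Among the members, those nearest to Ccr2 were Ccr1 (1.67) and Ccl6 (1.83). The 12 libraries share the group structure and the 2 libraries that stood apart, so these ranks describe the samples and carry no test.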

How the data were processed

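The deposited table held normalized values (signal): reads per gene, divided by the authors by 1 size factor for each library. STAR 2.7.10a, DESeq2 1.44.0 and mm10 appear in the submitters' processing notes. Not given in the sources used here: which tool counted genes, with which annotation and strand option. Values times their factor came within 0.01 of whole reads for 100% of values. For saline sham 2 the factor is so near 1 that an automated unit check did not accept this recovery. The count tests below, which are alternatives only, include that library, so their calls should be read with that reservation.

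Values were tested as log2(value + 1), which understates changes of low genes, with limma 3.58.1 (R 4.3.3, with trend) on 12 libraries in a single fit of 4 group means, which leaves 8 residual degrees of freedom. All tests were two-sided, with Benjamini-Hochberg adjustment over 14996 genes with a mean of at least 10. The model was tested on simulated data. Alternatives were a pseudocount of 5, no filter, TMM scaling, only the libraries compared, edgeR 4.0.16 (quasi-likelihood) and DESeq2 1.42.0 on recovered reads, leaving out libraries, and title prefix as a term (NAC against saline in MI). Replicates are numbered in accession order.

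All 9 members are named. Of the other lists, genes that passed, or up to 3 with the highest mean, are named, with exceptions marked in the text. Likeness names the 5 nearest genes for Ccl2 and Ccr2. Members and lists were chosen with earlier results of these data known. A result for 1 gene outside the members is not reported here.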

Additional observations from a re-analysis of the deposited data

Results flagged for a closer look

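Ccr2 had NAC against saline differences of opposite sign in sham and in MI. All 3 NAC sham libraries (7.88 to 8.19) were above the saline sham mean of 6.10, and all 3 NAC MI libraries (20.2 to 259) were below the saline MI mean of 305. The interaction, -1.84 on the log2 scale, did not pass in limma (adjusted p = 0.9999, unadjusted p = 0.114), and the NAC sham values lay within the range of saline sham (3.57 to 8.93). Of the NAC MI values, 2 of 3 (259 and 220.5) lay within the range of saline MI (168 to 393). The interaction was -0.68 on leaving out NAC MI 2 and -0.41 without the 3 libraries that stood apart.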

How the results depend on the processing

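For the 9 members, 801 values were recomputed under alternatives: 700 kept their direction and side of the threshold, 14 lost a call, 46 gained one and 41 changed sign. DESeq2 gave no adjusted p for 7 of them. No member changed sign in MI against sham after saline or averaged over treatments. No paired analysis was possible because the titles give the groups no shared replicate numbers. Title prefix, shared by some NAC MI and saline MI libraries, was fitted as a term instead, and 0 members were called. For the counts of members called, MI against sham after saline (2) became 4 with a pseudocount of 5, 1 without the filter, 8 with only the libraries compared, 1 in edgeR, 5 in DESeq2, 8 without the 3 libraries that stood apart, and 0 to 1 on leaving out 1 library. MI against sham after NAC (0) became 1 in edgeR, 2 in DESeq2, 8 without the 3 libraries and 0 to 3 on leaving out 1. The averaged count (4) became 9 without the 3 libraries and 2 to 8 on leaving out 1. For NAC against saline in sham, in MI and the interaction it stayed at 0 under all alternatives run.

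Over all genes, MI against sham after saline called 129, and 507 with only the libraries compared, 464 in DESeq2, 1807 without the 3 libraries and 15 to 105 on leaving out 1. After NAC it called 19, and 43 with a pseudocount of 5, 1 with only the libraries compared, 241 in DESeq2, 575 without the 3 libraries and 8 to 67 on leaving out 1. NAC against saline called 0 in sham (53 in DESeq2, 418 without the 3 libraries, 0 to 80 on leaving out 1) and 0 in MI (11 in DESeq2, 0 to 4 on leaving out 1). The interaction called 0 (1 in DESeq2, 6 without the 3 libraries, 0 to 4 on leaving out 1), and the averaged comparison 411 (1218 in DESeq2, 2183 without the 3 libraries, 133 to 1563 on leaving out 1).

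Changes of sign, as log2 values, were as follows, and their cause was not tested. In MI against sham after NAC, Ccl7 was -0.56 in edgeR and -0.60 in DESeq2, and Ccl12 was 2.17 without the 3 libraries and -1.62 to 0.95 on leaving out 1. In NAC against saline in sham, Ccl4 was 0.32 with a pseudocount of 5, 1.73 in edgeR and 1.76 in DESeq2. Without the 3 libraries, Ccl2 was -1.11, Ccl3 -1.05, Ccl6 -0.51, Ccl9 -0.23 and Ccr1 -0.0018 there. Leaving out 1 library gave -1.28 to 1.02 for Ccl2, -0.15 to 2.82 for Ccl7, -1.06 to 0.94 for Ccl3, -1.76 to 1.10 for Ccl4, -1.10 to 1.82 for Ccl6, -0.61 to 2.57 for Ccl9 and -0.57 to 0.87 for Ccr1. In NAC against saline in MI, Ccl12 was 0.29, Ccl9 0.46 and Ccr1 0.11 without the 3 libraries, with ranges of -2.27 to 0.29, -2.10 to 0.46 and -1.39 to 0.11 on leaving out 1. For the interaction without the 3 libraries, Ccl2 was 0.28, Ccl12 0.25, Ccl3 0.79, Ccl4 0.99, Ccl6 0.42, Ccl9 0.69 and Ccr1 0.11, and leaving out 1 gave -1.88 to 0.42 for Ccl2 and -2.48 to 0.38 for Ccl4.

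Depth limits the members with few reads: the 3 saline sham libraries held 18 reads of Ccl4, 20 of Ccl12 and 20 of Ccr2 in all. Groups of 3 libraries, 1 of which stood far from the others in both NAC groups, leave wide intervals.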
